A study of Mus musculus with 13 samples.

Results

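The genes examined are the collagens, the family that encodes the chains of the triple-helical proteins of the extracellular matrix. They were taken as every gene of the deposited counts whose symbol reads Col, a number, a and a second number, which gave 44 of 24421 genes. The question asked was how their RNA differed between mouse ES cells with and without an induced phosphomimetic CTCF, and whether both replicates showed the same difference. F1-2.1 is a female mouse ES cell line from a cross of CAST/Ei and 129/Sv/Jae, grown with LIF on a layer of irradiated embryonic fibroblasts (feeders), so that RNA of both cell types can enter a library. The cells of both groups were of clone A2, which carries a Tet-on transgene for CTCF S224E, CTCF in which glutamic acid replaces a serine that can be phosphorylated, beside the endogenous gene. The +dox cultures received 1 μg/mL doxycycline (dox) and the −dox cultures none, both for 6 days, with 2 cultures in each group. Because these are cultures of 1 clone and no library with dox but without the transgene was analysed here, an effect of dox and one of CTCF S224E cannot be told apart, and p-values rest on the spread between cultures of that clone.

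Each collagen chain holds a stretch of the repeat Gly-X-Y, in which a glycine recurs at a fixed interval so that chains can wind into a triple helix, often from the products of different genes. Fibrillar collagens assemble into the fibrils of skin, bone and cartilage, type IV collagens form the network of basement membranes, and other families coat fibrils, form beaded filaments or span the cell membrane. Fibroblasts are a main source of fibrillar collagen, and early embryonic endoderm of basement membrane collagen. For a bulk sample, fewer or more cells of a type and less or more RNA per cell cannot be told apart.

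The libraries held 22899107 to 30206085 counted reads, and the 20044 genes that were counted in any of them were tested. All 10 ES cell markers looked up, Pou5f1, Nanog and Sox2 among them, averaged at least 1 CPM, a count unit corrected for library size with TMM factors. Their summed level was 5331 to 6578 CPM per library, and 0 of them passed the edgeR or the DESeq2 test at an adjusted p under 0.01. At an unadjusted p under 0.05 in edgeR, 3 were higher and 1 lower (8.48% and 9.31% of all genes). The +dox replicate 1 library stood apart from the other 3 in markers of fibroblasts. The 20 fibroblast markers summed to 1217 CPM there, against 573 CPM in the other +dox library and 489 and 529 CPM in the −dox libraries, and all 18 that averaged at least 1 CPM were highest in that library. Genes of chromosome Y, which a female line does not carry, summed to 10.3 CPM in +dox replicate 1 (232 counts). Their sum was 3.28 CPM in +dox replicate 2, above the 2.46 and 2.67 CPM of −dox replicates 1 and 2 (67 to 75 counts in each). The main values that rest on +dox replicate 1 are therefore also given without that library.

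The DNA in front of the collagen genes is shown for the 5 genes with the lowest p-values and for Col18a1, the collagen with the most reads, because these are the genes the comparison turns on. Each line gives the 250 bases before the start listed in the deposited counts, 5′ to 3′ on the gene's own strand in mm9. They are chr11:94797288-94797537 (+) for Col1a1, chr6:4455447-4455696 (+) for Col1a2, chr1:45368133-45368382 (+) for Col3a1, chr9:105862975-105863224 (−) for Col6a5, chr4:129724834-129725083 (+) for Col16a1 and chr10:76629276-76629525 (−) for Col18a1. Capitals mark, on either strand, the core letters of the TATA box (TATAAA), of the CCAAT box (its own letters) and of the GC box (GGGCGG).
Col1a1: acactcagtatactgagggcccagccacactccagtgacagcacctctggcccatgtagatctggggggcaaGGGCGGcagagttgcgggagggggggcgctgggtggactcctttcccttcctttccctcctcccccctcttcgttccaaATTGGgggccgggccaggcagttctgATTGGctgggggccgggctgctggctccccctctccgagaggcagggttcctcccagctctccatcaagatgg
Col1a2: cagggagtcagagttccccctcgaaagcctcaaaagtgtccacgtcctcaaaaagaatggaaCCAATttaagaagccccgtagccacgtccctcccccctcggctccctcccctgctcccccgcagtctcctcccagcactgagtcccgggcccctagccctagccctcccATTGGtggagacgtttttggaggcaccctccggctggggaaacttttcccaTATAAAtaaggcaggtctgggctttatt
Col3a1: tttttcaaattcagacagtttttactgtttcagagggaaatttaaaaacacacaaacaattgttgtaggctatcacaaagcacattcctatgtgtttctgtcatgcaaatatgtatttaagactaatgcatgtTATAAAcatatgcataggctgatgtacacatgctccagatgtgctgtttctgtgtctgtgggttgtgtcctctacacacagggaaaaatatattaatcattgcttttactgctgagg
Col6a5: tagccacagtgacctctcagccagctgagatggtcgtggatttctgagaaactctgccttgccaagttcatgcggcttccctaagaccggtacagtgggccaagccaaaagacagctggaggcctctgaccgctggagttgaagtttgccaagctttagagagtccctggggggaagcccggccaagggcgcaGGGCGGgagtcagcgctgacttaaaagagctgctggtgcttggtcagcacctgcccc
Col16a1: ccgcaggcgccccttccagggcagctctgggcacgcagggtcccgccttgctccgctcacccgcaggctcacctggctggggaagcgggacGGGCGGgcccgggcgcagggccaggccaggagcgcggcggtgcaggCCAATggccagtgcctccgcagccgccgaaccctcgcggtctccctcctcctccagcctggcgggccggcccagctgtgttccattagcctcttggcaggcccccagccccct
Col18a1: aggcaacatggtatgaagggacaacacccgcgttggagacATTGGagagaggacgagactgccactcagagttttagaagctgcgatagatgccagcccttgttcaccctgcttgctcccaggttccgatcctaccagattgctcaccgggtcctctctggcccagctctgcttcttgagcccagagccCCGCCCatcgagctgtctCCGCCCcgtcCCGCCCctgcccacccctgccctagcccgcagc

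TATAAA stood 28 bases before the start in Col1a2 and 117 bases before it in Col3a1. The window of Col1a1 held none, but the start listed for that gene begins with these letters, and the next coding transcript of the annotation begins 29 bases downstream. GGGCGG was found 3 times in the Col18a1 window, all on the opposite strand, and once each in those of Col1a1, Col6a5 and Col16a1. The windows ranged from 35.2% G and C in Col3a1 to 75.6% in Col16a1, so the genes with the lowest p-values did not share a base composition. Over all 44 collagens, TATAAA was in 6 windows (13.6%, against 12.0% of 24349 genes), CCAAT in 15 (34.1%, against 35.2%) and GGGCGG in 26 (59.1%, against 41.6%). A match is a run of letters and not a tested site.

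All 44 collagens had at least 1 count. The 33 with a mean of at least 1 CPM over the 4 libraries are those counted below, 18 of these had at least 10 CPM, and the other 11 are given as counts. To compare genes with each other, levels were divided by transcript length (RPKM). On that scale Col18a1, whose product is a basement membrane proteoglycan that releases endostatin, stood far above the rest with 84.1 RPKM on average. It was followed by Col1a1, the main chain of type I collagen, with 20.2 RPKM, by Col9a2, a chain of the cartilage collagen IX, with 15.4, and by Col5a1, a chain of the collagen that regulates fibril width, with 14.4. Col1a2 had 13.7 RPKM and Col4a1, a basement membrane chain, 12.1. The order below Col18a1 was not the same in each library. In +dox replicate 1, Col1a1 (41.9 RPKM), Col1a2 (29.3) and Col5a1 (25.9) followed Col18a1, whereas in −dox replicate 1 Col9a2 (13.9) came before Col1a1 (11.3) and Col5a1 (10.0). The means of Col9a2, Col5a1 and Col1a2 lay within the range that each of these genes covered over the 4 libraries, so that their order cannot be set.

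**Figure D1:**
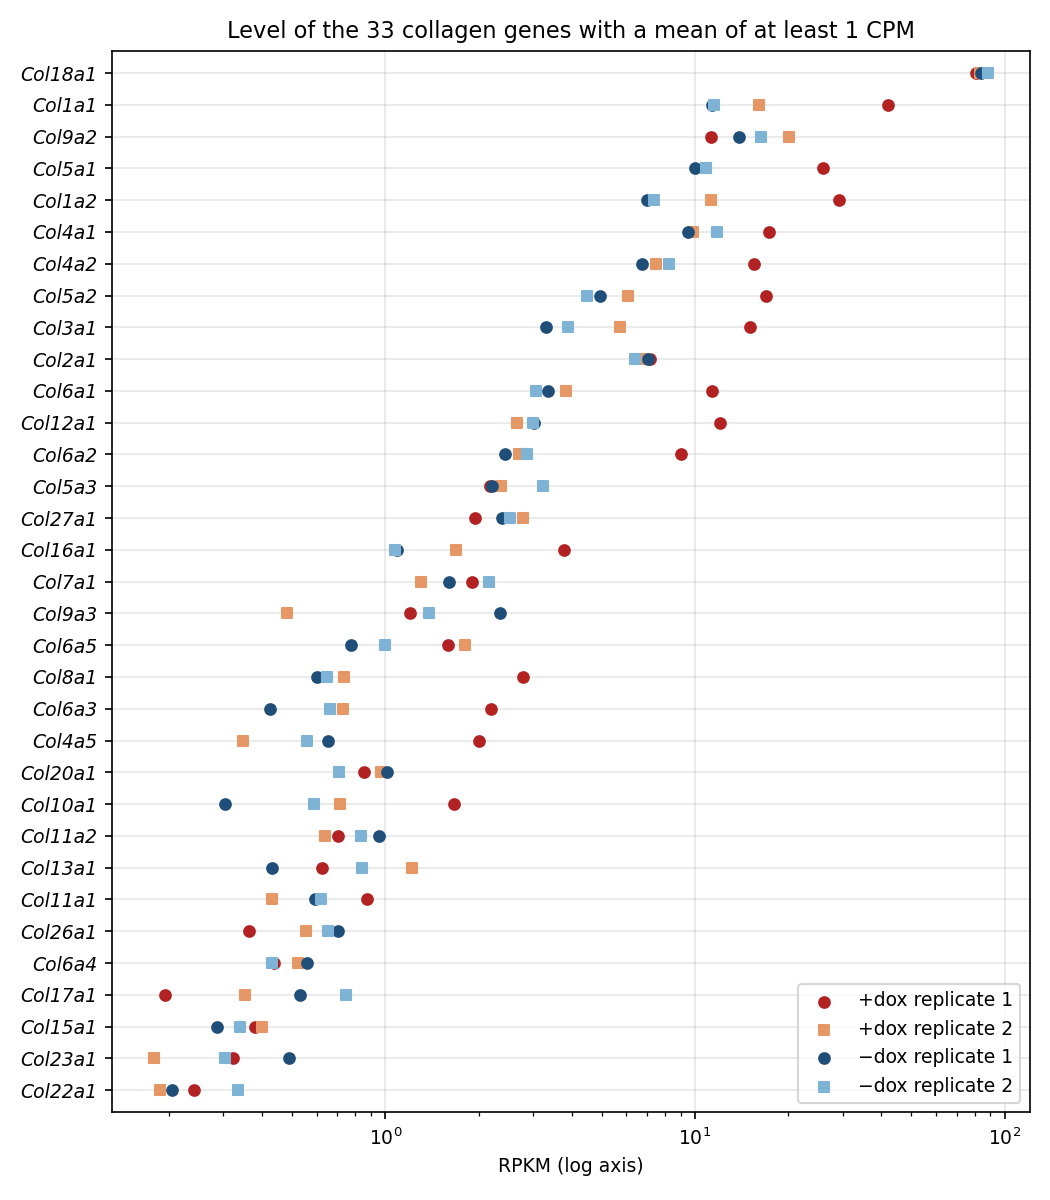
Level in RPKM (log axis) of each of the 33 collagens that averaged at least 1 CPM, with 1 point per library, ordered by mean. Col18a1 lies at 80.9 to 88.4 RPKM in all 4 libraries, while the point of +dox replicate 1 stands to the right of the other 3 for 17 genes, such as Col1a1 and Col12a1.

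No collagen passed the test at an adjusted p under 0.01 in edgeR's quasi-likelihood test with Benjamini-Hochberg adjustment, where 0.599% of all genes did (0.0798% higher and 0.519% lower). At an unadjusted p under 0.05, 17 collagens were called, 15 higher with dox and 2 lower, against 17.8% of all genes (8.48% higher, 9.31% lower). At an adjusted p under 0.05, 5 collagens were called, all higher (2.86% of all genes, 0.928% higher and 1.93% lower): Col1a2, Col3a1, Col6a5, Col1a1 and Col16a1. DESeq2 called 2 collagens higher at an adjusted p under 0.01, Col6a5 (adjusted p = 0.00454) and Col16a1 (adjusted p = 0.00595), where it called 1.87% of all genes (0.589% higher and 1.28% lower). The median log2 fold change of the 33 collagens was 0.36, and that of all genes with the same minimum was −0.00. Both +dox libraries were above both −dox libraries in 12 of the 33 collagens (26.1% of all genes) and below both in 5 (27.7% of all genes). An exact two-sided permutation test of 2 against 2 libraries cannot give a p below 0.333.

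The replicates gave different pictures. In replicate 1, 15 of the 33 collagens had a log2 ratio of +dox to −dox CPM above 1, against 2.95% of all genes. In replicate 2, 0 had (0.704% of all genes). A log2 ratio below −1 was seen in 1 collagen in replicate 1 (1.9% of all genes) and 2 in replicate 2 (3.18% of all genes), Col17a1 in both and Col9a3 in replicate 2. The median log2 ratio of the collagens was 0.56 in replicate 1 and 0.12 in replicate 2, and in all genes it was −0.01 and 0.00. The ratio of replicate 1 exceeded that of replicate 2 by more than 1 on the log2 scale in 17 collagens (3.86% of all genes), and the median difference over the 33 was 1.02. The +dox replicate 1 library held the highest level of 17 collagens (21% of all genes), and in 13 it was over 2 times each other library (1.65% of all genes). A direction shared by both replicates was seen in 14 collagens that were higher with dox (34% of all genes) and 7 that were lower (35.7%), while 12 went opposite ways (30.3%). A single ratio within a replicate has no replicate check, and an interaction term would leave no residual degrees of freedom, so the difference between replicates was not tested.

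**Figure D2:**
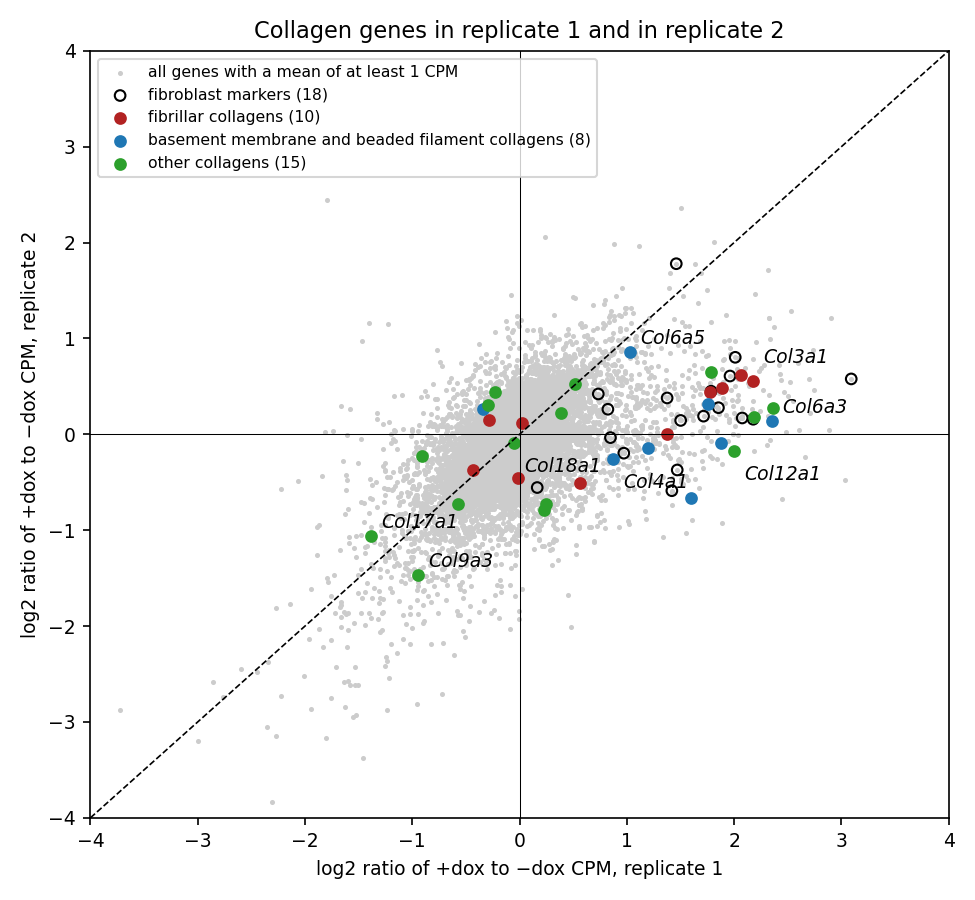
Each point is a gene that averaged at least 1 CPM, placed by the log2 ratio of +dox to −dox CPM in replicate 1 (horizontal) and replicate 2 (vertical); the dashed line marks equal ratios. All 15 collagens with a log2 ratio above 1 in replicate 1 lie below the dashed line, most of them among the open circles of the 18 fibroblast markers, and Col6a5, one of the 15, lies near the line, as do Col17a1 and Col18a1.

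In what follows the values of a gene are given in the order +dox replicate 1, +dox replicate 2, −dox replicate 1 and −dox replicate 2. The fibrillar family has 11 genes here, 10 of them with at least 1 CPM on average, of which 6 were higher with dox and 2 lower in both replicates. Col1a1 encodes the chain that makes up most of type I collagen, the collagen of bone, skin and tendon. It had 247, 94.9, 66.6 and 67.7 CPM. The +dox group averaged 171 ± 107 CPM (SD, n = 2) and the −dox group 67.2 ± 0.767, so the groups did not overlap, while the SD of the +dox cultures was as large as the difference of the means. The log2 fold change was 1.35 ± 0.29 (SE, edgeR quasi-likelihood adjusted p = 0.0325).

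Col1a2, the partner chain of Col1a1 in type I collagen, had 149, 57.4, 35.6 and 37.4 CPM, with a log2 fold change of 1.50 ± 0.30 (SE, edgeR quasi-likelihood adjusted p = 0.0241). Col3a1, the chain of the type III collagen of vessels and skin, had 82.8, 31.6, 18.3 and 21.5 CPM, with a log2 fold change of 1.52 ± 0.31 (SE, edgeR quasi-likelihood adjusted p = 0.0263). DESeq2 gave larger adjusted p-values over the same libraries, 0.222 for Col1a1, 0.155 for Col1a2 and 0.160 for Col3a1. In Col1a1, Col1a2 and Col3a1 alike, +dox replicate 1 was highest, +dox replicate 2 next and the −dox libraries close together. Without +dox replicate 1 the log2 fold changes were 0.50 for Col1a1, 0.65 for Col1a2 and 0.67 for Col3a1, and all 3 passed the test in that fit, with the lone +dox library assumed to vary like the −dox group (edgeR quasi-likelihood adjusted p = 0.00721, 0.000944 and 0.00499). Fits without that library called 5.07% of all genes.

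The type V chains, which control the width of fibrils, had unlike values. Col5a2 had 112, 40.0, 32.5 and 29.5 CPM, with both +dox libraries above both −dox libraries. Col5a1 had 216, 90.4, 83.4 and 90.3 CPM, where the +dox replicate 2 and −dox replicate 2 values were almost equal. Col5a3 had 13.1, 14.2, 13.3 and 19.5 CPM. The log2 fold change was 1.29 for Col5a2 (adjusted p = 0.0539), 0.82 for Col5a1 (adjusted p = 0.125) and −0.26 for Col5a3 (adjusted p = 0.576) in edgeR's quasi-likelihood test. Without +dox replicate 1 it was 0.37, 0.06 and −0.20. Among the cartilage fibril chains, Col2a1, the chain of collagen II, had 36.5, 35.3, 35.9 and 32.4 CPM, a log2 fold change of 0.07 ± 0.13 (SE). Col27a1 had 14.7, 21.2, 18.0 and 19.1 CPM, Col11a1 6.31, 3.11, 4.26 and 4.46, and Col11a2 3.91, 3.55, 5.30 and 4.62. Col11a1 was highest in +dox replicate 1 and lowest in +dox replicate 2, and its log2 fold change was 0.11, and −0.49 without +dox replicate 1. Only Col11a2 among these had both +dox libraries below both −dox libraries, with a log2 fold change of −0.41 ± 0.24 (SE).

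Type VI collagen forms beaded filaments around cells, from a trimer of the Col6a1, Col6a2 and Col6a3 chains, with Col6a4, Col6a5 and Col6a6 as related chains. Col6a5 was the one of these genes with an adjusted p under 0.05. It had 14.7 and 16.8 CPM in the +dox libraries (15.7 ± 1.46, SD, n = 2) and 7.17 and 9.21 CPM in the −dox libraries (8.19 ± 1.44). The groups did not overlap, and +dox replicate 1 was not the highest library. The log2 ratio was 1.03 in replicate 1 and 0.86 in replicate 2, and the log2 fold change 0.94 ± 0.20 (SE, edgeR quasi-likelihood adjusted p = 0.0296). Without +dox replicate 1 it was 1.04 ± 0.22 (SE, edgeR quasi-likelihood adjusted p = 0.000156).

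The chains of the classical type VI trimer gave a different order. Col6a1 had 44.7, 15.1, 13.2 and 12.1 CPM, Col6a2 33.3, 9.98, 9.04 and 10.6, and Col6a3 23.8, 7.88, 4.58 and 7.17. In each of them +dox replicate 1 was at least 2.97 times +dox replicate 2, and in Col6a2 the groups overlapped. Their log2 fold changes were 1.24, 1.14 and 1.43, and 0.25, 0.02 and 0.43 without +dox replicate 1. Col6a4 had 3.24, 3.85, 4.13 and 3.19 CPM, with overlapping groups. Col6a6 had between 12 and 23 counts in each library. Col6a5 and its neighbours Col6a6 and Col6a4 lie in a row on chromosome 9, 28.0 kb and 29.7 kb apart and transcribed in the same direction. Of the 3 only Col6a5 had groups that did not overlap. Among all genes with at least 1 CPM on average, both +dox libraries were above both −dox libraries in 26.1% and below both in 27.7%. A gap between groups in 1 of 3 genes is therefore not read as a trait of this row.

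The basement membrane chains Col4a1 and Col4a2, which form the type IV collagen present in nearly every basement membrane, had levels that depended on the replicate. Col4a1 had 114, 64.8, 62.3 and 77.5 CPM and Col4a2 had 99.1, 47.9, 43.3 and 53.0 CPM, so that +dox replicate 1 was highest and +dox replicate 2 lay between the −dox libraries. The log2 ratio of Col4a1 was 0.87 in replicate 1 and −0.26 in replicate 2, and that of Col4a2 was 1.19 and −0.14. Their log2 fold changes were 0.36 ± 0.20 and 0.61 ± 0.24 (SE; edgeR quasi-likelihood adjusted p = 0.402 and 0.203), and −0.11 and −0.01 without +dox replicate 1. Col4a5, a chain of kidney basement membranes named here after its values were seen, had 12.9, 2.23, 4.19 and 3.59 CPM. Its ratio in replicate 1 exceeded that in replicate 2 by 2.27 on the log2 scale, more than any other collagen with at least 1 CPM on average.

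Col4a1 and Col4a2 lie head to head on chromosome 8, at chr8:11198423-11312826 (−) and chr8:11312805-11449287 (+), and their first exons share 22 bases. These bases, chr8:11312805-11312826 on the + strand, are shown in capitals because both genes hold them. The stretch is shorter than an untrimmed read of the study, so few reads can lie wholly inside it.
Shared start of Col4a1 and Col4a2: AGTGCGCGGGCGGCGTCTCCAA

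Exons of 9 of the 44 collagens, among them Col1a1 (with Gm17329) and Col5a1, overlap those of another annotated gene, so that their counts may hold reads of the neighbour. Other type IV genes are paired in the same way, Col4a4 and Col4a3 with 71 bases between them and Col4a6 and Col4a5 with 1342. Of 12 markers of primitive and parietal endoderm, cells rich in type IV collagen, 6 had a positive and 6 a negative log2 fold change. Among these markers, 4 were higher and 4 lower at an unadjusted p under 0.05 (8.48% and 9.31% of all genes). Gata6 had 1.64, 1.09, 5.27 and 6.97 CPM, Sox17 1.20, 1.71, 7.66 and 9.64, and Foxa2 1.55, 1.45, 8.28 and 12.6. These were the 3 of them called by edgeR, all lower (0.519% of all genes), with log2 fold changes of −2.16, −2.57 and −2.79 (quasi-likelihood adjusted p = 0.00309, 0.000713 and 0.00046), and DESeq2 also called Gata4 lower. The list summed to 586 to 706 CPM per library, most of it from Sparc, Lama1 and Lamb1, and its part in the collagen levels was not tested.

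The fibril-associated collagens, which sit on the surface of fibrils, held genes of both directions. Col16a1 had 19.5, 8.67, 5.60 and 5.50 CPM, with both +dox libraries above both −dox libraries. Its log2 fold change was 1.34 ± 0.31 (SE, edgeR quasi-likelihood adjusted p = 0.0394), and 0.64 without +dox replicate 1 (adjusted p = 0.0992). Col12a1, a long chain found in tendon and around stretched tissue, had 141, 31.0, 35.3 and 35.0 CPM. The +dox replicate 1 value was 4.54 times that of +dox replicate 2, and the other 3 libraries lay between 31.0 and 35.3 CPM. Its log2 fold change was 1.29 ± 0.44 (SE), and −0.18 without +dox replicate 1.

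The type IX chains, which decorate cartilage fibrils, had their own pattern. Col9a2 had 30.6, 54.7, 37.7 and 44.3 CPM, so that +dox replicate 1 was lowest and +dox replicate 2 highest. Col9a3 had 3.38, 1.36, 6.58 and 3.91 CPM, with both +dox libraries below both −dox libraries. Its log2 fold change was −1.15 ± 0.38 (SE, edgeR quasi-likelihood adjusted p = 0.13), and −1.95 ± 0.35 without +dox replicate 1 (adjusted p = 3.56e-06). Col9a3 exons overlap those of Tcfl5 on the opposite strand, and since the use of the strand in counting is not stated, its counts may hold reads of that gene. Col9a1, the remaining chain of type IX collagen, had between 1 and 12 counts per library.

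Among the short-chain collagens, Col8a1, found in the matrix below endothelia, had 14.3, 3.77, 3.08 and 3.31 CPM, and Col10a1, the collagen of hypertrophic cartilage, had 5.20, 2.23, 0.949 and 1.83 CPM. Both had +dox libraries above the −dox libraries, with log2 fold changes of 1.50 ± 0.45 and 1.43 ± 0.42 (SE), and 0.24 and 0.70 without +dox replicate 1. Exons of Col10a1 overlap Nt5dc1 on the opposite strand. The transmembrane Col17a1, a part of the hemidesmosomes that fix epithelia to their basement membrane, had 1.07, 1.93, 2.91 and 4.10 CPM. Both +dox libraries were below both −dox libraries, and the replicates gave log2 ratios of −1.39 and −1.06, with a log2 fold change of −1.22 ± 0.34 (SE, edgeR quasi-likelihood adjusted p = 0.0795). Col23a1, another transmembrane collagen, had 1.82, 1.01, 2.75 and 1.71 CPM with overlapping groups, and Col26a1 had 0.977, 1.49, 1.90 and 1.75 CPM. Their log2 fold changes were −0.66 ± 0.38 and −0.57 ± 0.35 (SE). Col7a1, the collagen of the anchoring fibrils of skin, had 17.3, 11.8, 14.6 and 19.6 CPM, and its ratio was above 0 in replicate 1 and below 0 in replicate 2.

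Col18a1 hardly varied. It had 405, 416, 419 and 442 CPM, 411 ± 8.31 with dox and 431 ± 16.0 without (SD, n = 2). Although both +dox libraries were below both −dox libraries, the log2 fold change was −0.07 ± 0.08 (SE, edgeR quasi-likelihood adjusted p = 0.714). Col15a1, its closest relative in structure, had a mean of 0.351 RPKM against 84.1 RPKM for Col18a1.

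The 11 collagens with a mean below 1 CPM were Col8a2, Col4a6, Col6a6, Col24a1, Col9a1, Col14a1, Col25a1, Col28a1, Col4a4, Col19a1 and Col4a3, and none had more than 38 counts in any library. Col25a1 had 0, 7, 20 and 9 counts. Col28a1 had 13, 1, 1 and 2 counts, and Col19a1 had 5 in +dox replicate 1 and 0 in the others. A count of 0 allows up to 3 reads, which is 0.0982 to 0.133 CPM in these libraries, for counting error alone. Their adjusted p in edgeR's quasi-likelihood test ran from 0.274 for Col24a1 to 0.961 for Col4a3.

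**Figure D3:**
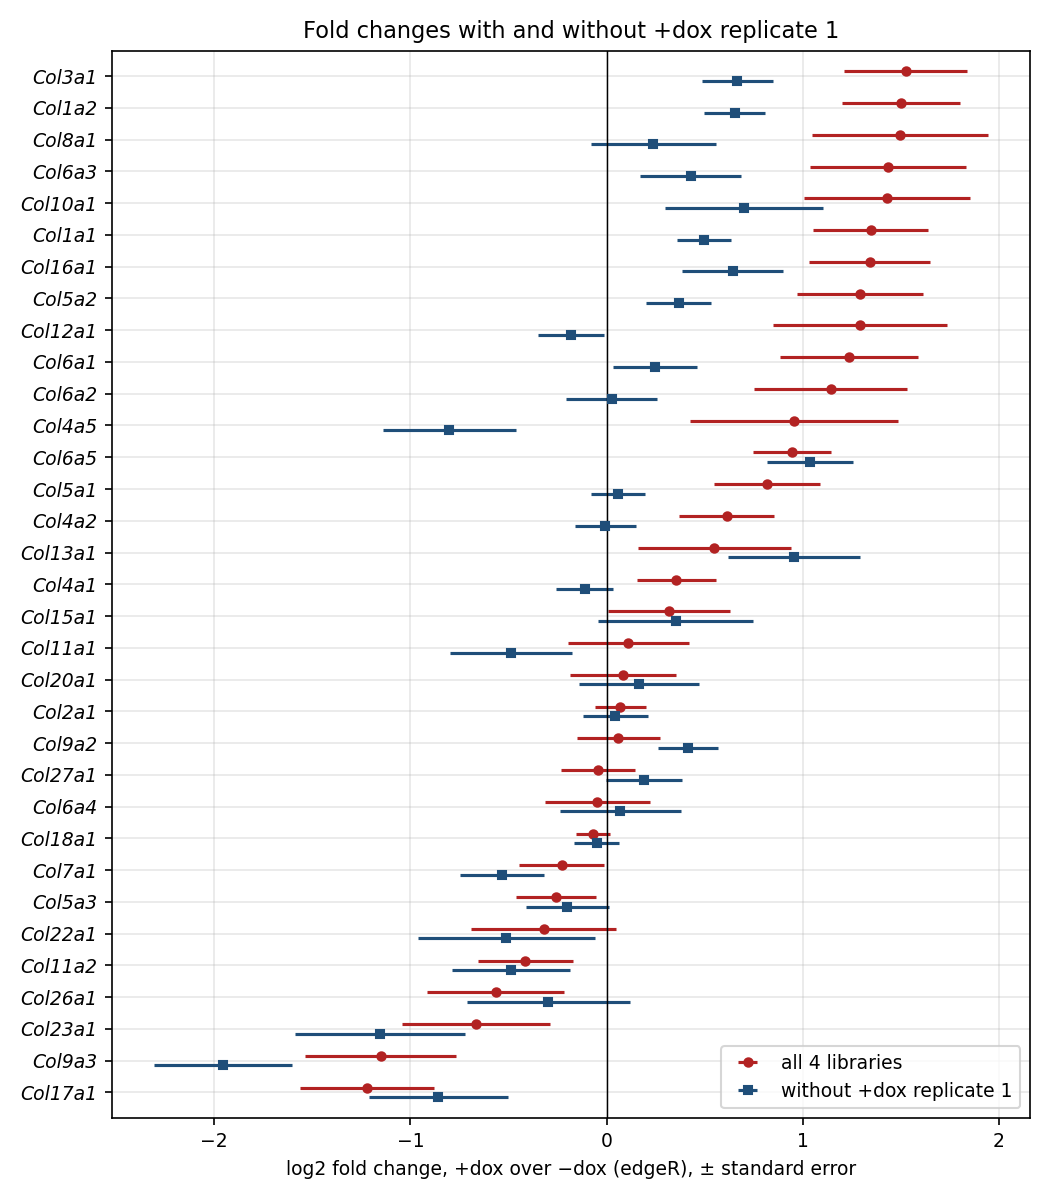
edgeR log2 fold change of +dox over −dox (horizontal) with its standard error for the 33 collagen genes, from all 4 libraries (circles) and without +dox replicate 1 (squares). The squares of Col12a1, Col4a5 and Col6a2 lie between −0.80 and 0.02 beside circles at 0.95 to 1.29, whereas those of Col6a5 (0.94 and 1.04) and Col18a1 (−0.07 and −0.05) hardly move.

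Leaving out +dox replicate 1 took the median log2 fold change of the collagens from 0.36 to 0.06, and leaving out +dox replicate 2 took it to 0.53. Without +dox replicate 1, edgeR called 5 of 43 collagens at an adjusted p under 0.01, Col6a5, Col1a2, Col3a1 and Col1a1 higher (1.51% of all genes) and Col9a3 lower (3.56% of all genes). Without +dox replicate 2 it called 17 (4.43% of all genes), of which 16 were higher (2.62% of all genes) and Col17a1 lower (1.81% of all genes). Both fits used the same −dox libraries, so genes shared by both lists are partly set by the design, and their number is not read as a result. In each such fit the group with 1 library was assumed to vary like the other group.

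Taken as a share of all reads, collagens made up 0.185% of +dox replicate 1 (95% exact binomial interval 0.183 to 0.187%). The share was 0.109% in +dox replicate 2 (0.108 to 0.111%). In the −dox libraries it was 0.102% for replicate 1 (0.100 to 0.103%) and 0.110% for replicate 2 (0.109 to 0.111%). These intervals cover counting error only. The +dox replicate 2 library lay between the −dox libraries. Col18a1 alone took 21.5% of collagen reads in +dox replicate 1 and 37.5 to 41.8% in the other libraries. With Col18a1 left out, the shares were 0.145%, 0.0684%, 0.0591% and 0.0650%, and +dox replicate 2 was then slightly above both −dox libraries.

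By family, the summed level was 881, 392, 313 and 327 CPM for the fibrillar collagens and 120, 54.3, 38.7 and 43.2 CPM for the beaded filament collagens. In both families +dox replicate 1 was over 2 times every other library and +dox replicate 2 came next. The basement membrane collagens summed to 227, 115, 111 and 135 CPM and the fibril-associated ones to 200.3, 101.7, 91.0 and 94.3 CPM. The transmembrane collagens were lowest in +dox replicate 1, with 4.84, 7.05, 7.66 and 8.81 CPM.

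**Figure D4:**
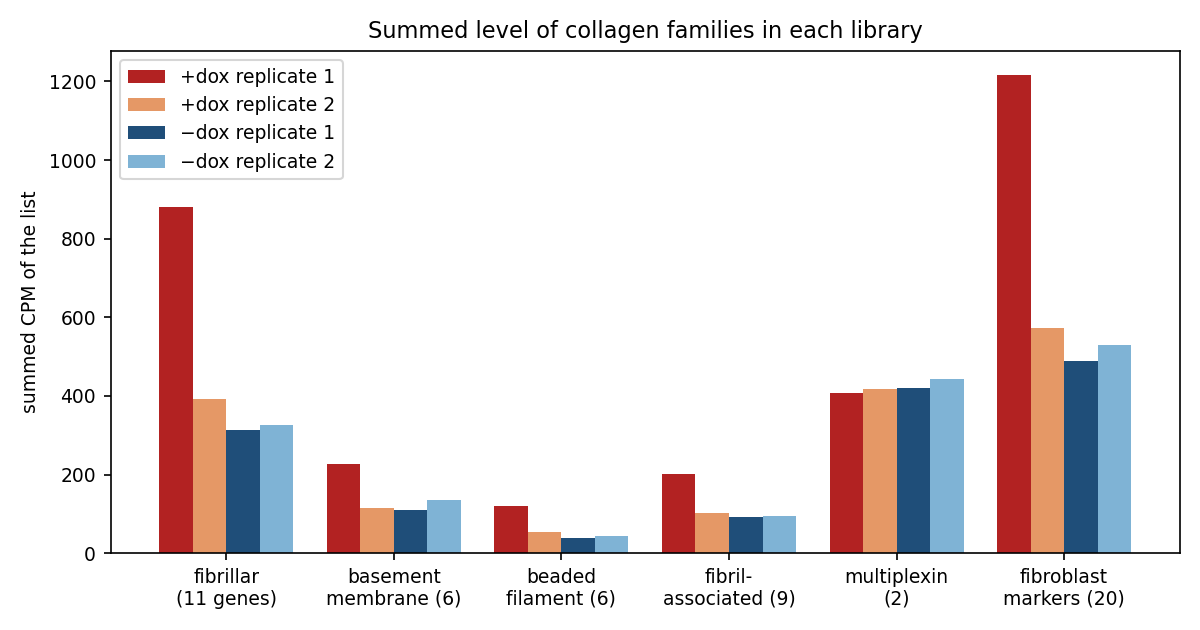
Summed CPM (bars, from 0) of 5 collagen families and of the 20 fibroblast markers in each of the 4 libraries. The fibrillar bar of +dox replicate 1 reaches 881 CPM beside 1217 CPM for the fibroblast markers, while the multiplexins (Col15a1 and Col18a1) stay between 407 and 444 CPM.

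The fibroblast markers, like the fibrillar, beaded filament, basement membrane and fibril-associated sums, were highest in +dox replicate 1. The ratio of summed fibrillar collagen CPM to summed fibroblast marker CPM was 0.724, 0.684, 0.641 and 0.618, higher in either +dox library than in either −dox library. For the beaded filament collagens this ratio was 0.0988, 0.0948, 0.0792 and 0.0817, also higher in either +dox library. The basement membrane ratio went the other way, with 0.187, 0.201, 0.227 and 0.255, lower in either +dox library than in either −dox library. The same ratio for the multiplexins was 0.334, 0.730, 0.861 and 0.839, also lower in either +dox library. Of the 20 markers, 14 were higher with dox at an unadjusted p under 0.05 and 0 lower (8.48% and 9.31% of all genes). At an adjusted p under 0.01, 0 of them passed in edgeR or DESeq2. Their median log2 fold change was 1.03, and 0.32 without +dox replicate 1. Their median log2 ratio was 1.49 in replicate 1 and 0.23 in replicate 2, Lum and Fap were near 0 in all libraries, and the part of fibroblast RNA in the collagen levels was not tested. Of the 18 with at least 1 CPM on average, 17 had a positive log2 fold change and 1, Tagln, a negative one. Tagln had 101, 66.8, 90.6 and 98.2 CPM, a log2 fold change of −0.17, and −0.50 without +dox replicate 1. Fbln2 and Acta2, the other markers among the 3 with the highest mean RPKM, had 309, 134, 94.0 and 117 CPM and 130, 71.6, 50.1 and 55.0 CPM. Markers of endothelium (6) and of chondrocytes (6) summed to 13.2 to 15.8 and 33.2 to 45.0 CPM per library. Of either list, 0 were called by edgeR or DESeq2. Over both lists, 1 was higher and 2 lower at an unadjusted p under 0.05 (8.48% and 9.31% of all genes).

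Chains of one trimer were compared within each library, per length. The ratio of Col1a1 to Col1a2, which meet in type I collagen, was 1.43 in both +dox libraries, 1.62 in −dox replicate 1 and 1.57 in −dox replicate 2. The ratio thus stayed within a narrow range while Col1a1 ran from 66.6 to 247 CPM and Col1a2 from 35.6 to 149 CPM. For Col4a1 to Col4a2 it was 1.12, 1.32, 1.40 and 1.43. The ratio of Col5a1 to Col5a2 was lower in the +dox libraries, at 1.52 and 1.78, than in the −dox libraries, at 2.02 and 2.41. Col9a2 and Col9a3 did not keep a ratio, with 9.40, 41.7, 5.93 and 11.8. These ratios are a description and were not tested.

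A feature that the symbols do not set, and that part of these genes share, is the length of their exons. In the annotation of the mm9 assembly, using the longest coding transcript, 469 of 1917 internal coding exons of the collagens (24.5%) were exactly 54 bases long, against 1092 of 156401 (0.698%) in all protein-coding genes. A length that is a multiple of 9 bases, which is 1 Gly-X-Y repeat, was found in 63.8% of collagen exons and 14.3% of all. The fibrillar genes carried 305 such 54-base exons in 627 (48.6%), with 42.9% in Col1a1 and 56.9% in Col24a1. The fibril-associated genes had 26.4%, from 6.35% in Col12a1 to 46.7% in Col9a2 and Col9a3. The beaded filament genes had 8.25% and the basement membrane genes 4.23%. Exon numbers ran from 3 in Col10a1 to 119 in Col7a1.

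**Figure D5:**
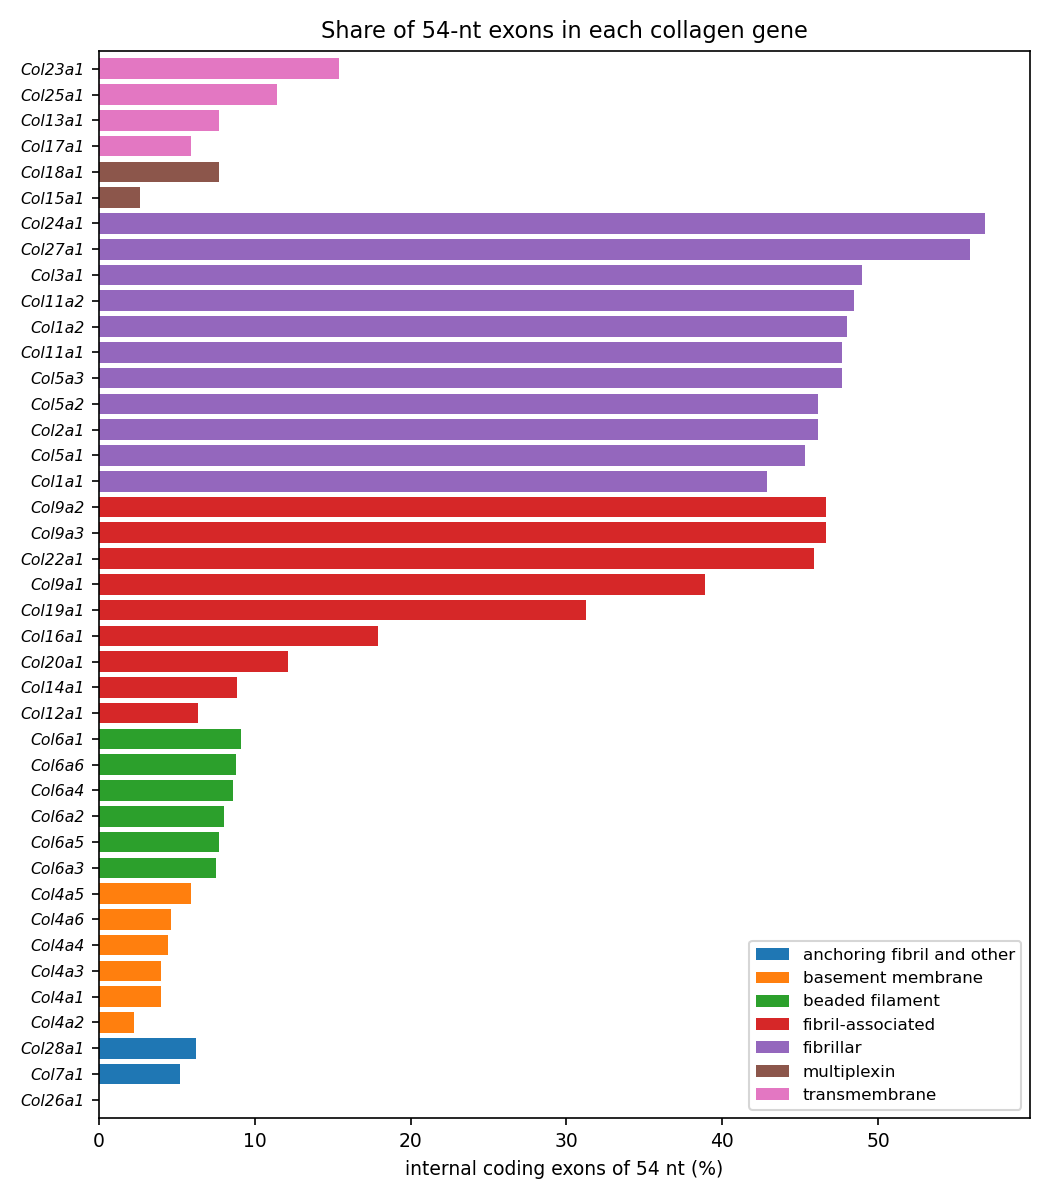
Share of internal coding exons that are 54 bases long (bars, from 0) in each of the 41 collagen genes that have internal coding exons, coloured by family. The 11 fibrillar genes lie between 42.9% and 56.9%, and the 6 basement membrane genes between 2.22% and 5.88%.

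Genes that serve collagen production were read from lists set beside the collagens. Of 20 genes that act inside the cell, 19 had a count and 0 passed edgeR's or DESeq2's test. The 3 with the highest mean RPKM were P4hb, a subunit of prolyl hydroxylase, with 355, 371, 316 and 357 CPM, Ppib, a prolyl isomerase, with 113, 120, 107 and 111, and Serpinh1, the collagen chaperone, with 160.0, 166, 144 and 171. Over the same libraries the fibrillar collagens ran from 313 to 881 CPM in sum. At an unadjusted p under 0.05, 4 of the list were higher and 3 lower (8.48% and 9.31% of all genes). Those higher were Plod3, P3h3, Crtap and Fkbp10, and those lower were the hydroxylases P4ha1, P4ha2 and Plod2.

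Of 13 genes that process or cross-link collagen outside the cell, 0 passed edgeR's test and 1, Loxl3, passed DESeq2's (1.87% of all genes). From this list, 5 were higher and 1 lower at an unadjusted p under 0.05 (8.48% and 9.31% of all genes). Loxl3, a cross-linking oxidase, had 24.5, 10.9, 5.96 and 6.77 CPM, with both +dox libraries above both −dox libraries and a log2 fold change of 1.48 ± 0.31 (SE, edgeR quasi-likelihood adjusted p = 0.0266). Without +dox replicate 1 it was 0.78 ± 0.24 (SE, edgeR quasi-likelihood adjusted p = 0.0208). Loxl1, of the same family, had 72.3, 32.9, 25.3 and 23.2 CPM, a log2 fold change of 1.11, and 0.44 without +dox replicate 1. The procollagen proteinase enhancers Pcolce and Pcolce2 had 178, 210, 133 and 162 CPM and 57.1, 67.8, 49.3 and 54.5 CPM. Of 10 collagen receptors 0 passed either test, with 2 higher and 1 lower at an unadjusted p under 0.05 (8.48% and 9.31% of all genes). The 3 with the highest RPKM, the integrin chain Itgb1 (186, 138, 144 and 174 CPM), the discoidin receptor Ddr1 (71.2, 68.1, 94.0 and 87.8 CPM) and the uptake receptor Mrc2 (51.6, 18.2, 25.7 and 23.0 CPM), gave 3 different orders of the libraries. The log2 fold change of Mrc2 was 0.52, and −0.42 without +dox replicate 1. Over the processing genes and receptors together, edgeR called 5 at an adjusted p under 0.01 without +dox replicate 1 (1 higher and 4 lower, where 5.07% of all genes were called), and 11 without +dox replicate 2 (10 higher and 1 lower, where 4.43% of all genes were called).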

How the data were processed

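RNA-seq counts of 2 +dox and 2 −dox cultures were used. The authors deposited raw counts, 1 table per replicate, which they had made from polyA RNA by trimming (cutadapt), alignment to mm9 (TopHat2), removal of PCR duplicates and counting of uniquely mapped exonic reads (HOMER). Versions and the use of strand are not given in the sources used here, although the kit is directional. ChIP-seq and Hi-C samples were not used here.

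Genes were matched between tables by symbol. A different transcript is listed for 547 genes, Col25a1 and Col9a1 among them, and RPKM used each table's own length. Counts of 20044 genes were tested with edgeR 4.0.16 (TMM, glmQLFit and glmQLFTest, R 4.3.3) without a replicate block, with Benjamini-Hochberg adjustment and a threshold of 0.01. DESeq2 1.42.0 and the other alternatives are given below. Ratios within a replicate used a prior count of 2. Summed CPM and RPKM use TMM-scaled library sizes. Gene models are from GENCODE vM1 and sequences from the NCBIM37 assembly, which is mm9, and 43 of 44 collagens matched by name. The fit was tested on simulated data. Named collagens had a mean of at least 10 CPM, a call at 0.01, 1 of the 5 highest or lowest fold changes, or a chain partner among these. In the processing, receptor, fibroblast and endoderm lists those called and the 3 highest by mean RPKM were named. In the ES cell, chromosome Y, endothelium and chondrocyte lists the 3 highest were not all named. Other genes were named after their values were seen. The collagens and all lists were chosen with earlier results of these data known.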

Additional observations from a re-analysis of the deposited data

How the results depend on the processing

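The number of collagens called depended on the test and on single libraries. It was 0 with edgeR's default fit, and also with adjusted deviances, with DESeq2's size factors, with total counts and with filterByExpr. It was 2 with DESeq2, 5 at a threshold of 0.05 and 9 with the replicate number as a block (Col1a2, Col1a1, Col3a1, Col5a2, Col16a1, Col6a5 and Col6a1 higher, Col9a3 and Col17a1 lower, where 3.92% of all genes were called), and it ranged from 0 to 17 with 1 library left out. The labels share only a number, so the block is given as an alternative and not as the default. Same-numbered libraries deviated together with a correlation of 0.196 across genes, which does not decide whether the cultures were paired. The ratios within a replicate rest on the same shared number. Genes called in all went from 120 to 786 with the replicate block, 375 with DESeq2, 0 with adjusted deviances, 11 with filterByExpr, 573 at a threshold of 0.05, and 0 to 992 with 1 library left out (992 without +dox replicate 1, 877 without +dox replicate 2, 0 without either −dox library). Collagen processing genes and receptors called went from 0 to 6 with the replicate block, 1 with DESeq2, 2 at a threshold of 0.05 and 0 to 11 with 1 library left out. The median log2 fold change of the collagens, 0.36, was 0.88 with a minimum mean of 10 CPM and 0.06 to 0.53 with 1 library left out. A minimum mean was taken over all 4 libraries, so it can admit genes through their +dox values. Col6a3 and Col6a5, both below 10 CPM in either −dox library, entered in this way, so the rise to 0.88 is partly set by the filter. The ratio of the collagen share of reads, 1.39 for +dox over −dox, ranged from 1.03 without +dox replicate 1 to 1.75 without +dox replicate 2, and was 1.72 without Col18a1. The median difference between replicates, 1.02, was 1.06 with a prior count of 0.5 and 1.34 with a minimum mean of 10 CPM. For the named collagens, processing genes and receptors, 0 of which the default fit called, 40 of 409 gene and alternative pairs passed the threshold, and 21 had the opposite sign to the default fit, 9 of these without +dox replicate 1 (Col12a1, Col4a1 and Col11a1 among them) and none past the threshold. The causes were not tested. Collagens below 1 CPM had too few counts for a fold change to be read.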
